A study of Arabidopsis thaliana with 6 samples.

Results

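The genes described here are 10 enzymes of cytokinin metabolism in Arabidopsis thaliana, taken by locus identifier from the 38194 loci of the deposited count files. They are 3 isopentenyltransferase genes, IPT3 (AT3G63110), IPT5 (AT5G19040) and IPT7 (AT3G23630), and the 7 cytokinin oxidase/dehydrogenase genes, CKX1 (AT2G41510), CKX2 (AT2G19500), CKX3 (AT5G56970), CKX4 (AT4G29740), CKX5 (AT1G75450), CKX6 (AT3G63440) and CKX7 (AT5G21482). RNA was sequenced from 35S:GR-TCP5 seedlings, 12 days old, treated for 4 h with dexamethasone (DEX) or with the same solution without it (MOCK), 3 libraries each. Both groups carry the construct, in which the leaf growth regulator TCP5 is joined to the glucocorticoid receptor under the 35S promoter, active in most cells. Such fusions are known to enter the nucleus once DEX binds them. The DEX solution is labelled as 10 mM dexamethasone with 0.1% ethanol and 0.015% silwet, and MOCK as the same ethanol and silwet. That unit is in doubt, since micromolar doses are usual. Plants without the construct were not analysed here, so an effect of dexamethasone cannot be told apart from one of TCP5. Replicates 1 and 2 of both groups carry one run date and replicate 3 of both groups a later one. Nothing in the labels says that replicates were grown separately. The p-values therefore reflect only how far these libraries vary, and that variation may be technical.

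Cytokinins are adenine-derived hormones that promote cell division in the shoot and delay the end of cell proliferation in young leaves. IPT enzymes attach the isoprenoid side chain to ATP or ADP, the first step of synthesis. CYP735A enzymes then hydroxylate the chain to give trans-zeatin types, and LOG enzymes release the active base from its nucleotide. CKX enzymes cut off the side chain irreversibly and thereby remove the hormone.

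The libraries held 33428836 to 76859163 exon counts. Levels are CPM, counts scaled to library size by TMM, and differences are log2 fold changes, DEX over MOCK, with their standard error (SE). The label gives whole seedlings as the tissue. Of 16 root marker genes, between 7 and 12 had 0 counts in each first-run library, and PYK10 alone was above 1 CPM in them. In the second run 10 were above 1 CPM with DEX and 13 with MOCK. Summed without PYK10, the root markers reached 47.9 CPM with DEX, against 102 CPM with MOCK, in the second run, and between 0.165 and 1.66 CPM in the first. The 7 shoot markers summed to between 18387 and 22373 CPM in all 6 libraries. TCP5 itself, which cannot be separated into transgene and native transcripts, had a log2 fold change of −0.31 ± 0.10 (edgeR adjusted p = 0.152), and its call depended on the test (DESeq2 adjusted p = 0.0189). Its levels were 233, 263 and 964 CPM in DEX replicates 1, 2 and 3, against 323, 296 and 1177 CPM in MOCK replicates 1, 2 and 3. In both groups the second-run library was the highest.

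The first question was whether DEX changed the transcripts of these synthesis and breakdown enzymes. None of the 7 members that could be tested passed, and 3 were too low to test. Among all 21934 genes tested, 4.67% were called by edgeR's quasi-likelihood test at an adjusted p under 0.05, 1.09% as rises and 3.58% as falls. That was 1024 genes, and 571 with the replicate number as a block. At an unadjusted p under 0.05, edgeR listed 4 of the 7 members (CKX1, CKX4, CKX5 and CKX6) against 19.0% of all genes. DESeq2 and limma-voom also called 0 members, and each had 4 at an unadjusted p under 0.05. Of the 21934 genes, DESeq2 called 2065 and limma-voom 1132. At an unadjusted p under 0.05 there were 4255 genes with DESeq2 and 4351 with limma-voom. The 7 members pointed both ways: IPT3, IPT5, CKX1 and CKX5 were lower with DEX, and CKX4, CKX6 and CKX7 higher. A value that misses the threshold does not show that the level was the same.

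**Figure D1:**
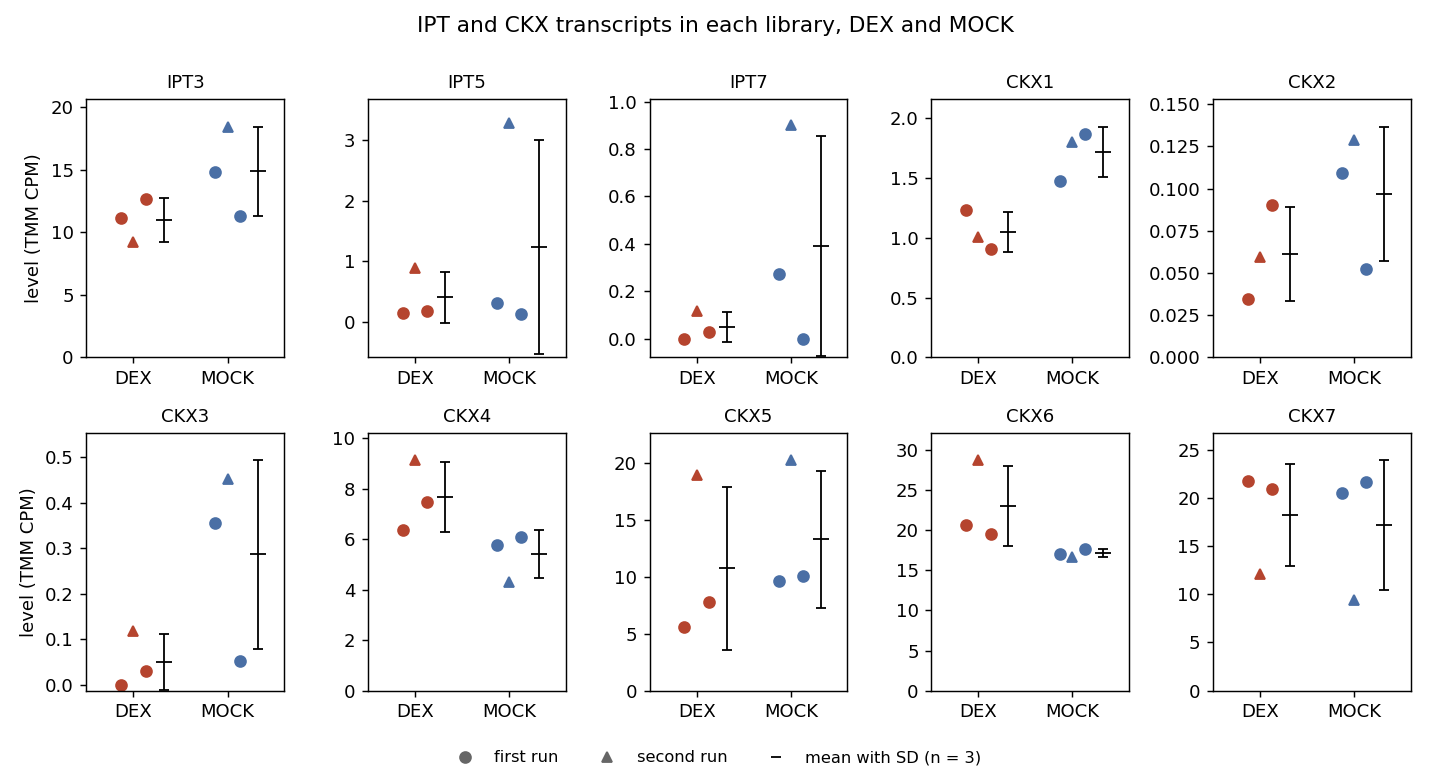
Level of each of the 10 genes (TMM CPM, vertical axis, a separate scale per gene) in every DEX and MOCK library, with circles for the first sequencing run, triangles for the second, and a black bar for the mean with SD (n = 3). The DEX and MOCK points do not overlap for CKX1, CKX4 and CKX6, and for IPT5, CKX5 and CKX7 both second-run triangles stand apart from the circles.

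Among the synthesis genes, IPT3, the most abundant of the 3, was lower with DEX on average, with overlapping groups. IPT3 is a phloem-expressed enzyme known for its response to nitrate. It was at 11.2, 12.7 and 9.18 CPM in DEX replicates 1, 2 and 3, against 14.9, 11.3 and 18.4 CPM in MOCK replicates 1, 2 and 3. The SD was 1.75 CPM over the DEX libraries and 3.56 CPM over the MOCK libraries. In the first run the DEX and MOCK libraries overlapped, and in the second run the DEX library was lower. The log2 fold change was −0.41 ± 0.20 (edgeR adjusted p = 0.337).

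IPT5, known in roots from lateral root primordia and the root cap, was rare in the first run. It had 8, 12 and 30 counts in the DEX libraries, against 22, 10 and 102 in the MOCK libraries. These were 0.137, 0.180 and 0.888 CPM with DEX, against 0.301, 0.131 and 3.29 CPM with MOCK. The groups overlap, and the 2 highest values are those of the second-run libraries. The log2 fold change was −1.04 ± 0.52 (edgeR adjusted p = 0.334). The root markers summed without PYK10 were also highest in the second-run libraries, and that sum was lower with DEX than with MOCK, while NRT2.1, BRN1 and BRN2 of the list were higher with DEX there. The part of the root markers in the IPT5 values was not tested. In bulk libraries, fewer cells of a type and less RNA per cell cannot be told apart.

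IPT7, another synthesis enzyme known from root tissue, did not pass the filter on low counts. It had 0, 2 and 4 counts in the DEX libraries, against 20, 0 and 28 in the MOCK libraries. The sums were 6 of 154998199 counts with DEX and 48 of 181511419 with MOCK. MOCK replicates 1 and 3 stand above the DEX libraries and MOCK replicate 2 does not. A count of 0, for counting error only, allows up to 0.0513 CPM in DEX replicate 1 and 0.0393 CPM in MOCK replicate 2. That bound takes each count as a separate fragment. It would be higher if fragments were counted more than once, which was not tested. Fitted without the filter, IPT7 had a log2 fold change of −2.92 ± 1.37 (edgeR adjusted p = 0.338), a value that depends on the prior count.

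Among the breakdown genes, CKX1 and CKX5 were lower in each DEX library than in any MOCK library of the same run, and neither passed. CKX1 encodes an enzyme of the secretory system. It was at 1.23, 0.902 and 1.01 CPM in the DEX libraries, against 1.48, 1.87 and 1.80 CPM in the MOCK libraries, so the groups did not overlap. Its log2 fold change was −0.71 ± 0.27, or 1.63-fold lower with DEX (edgeR adjusted p = 0.202). CKX1 overlaps the annotated loci AT2G41505 and AT2G41515 on the other strand, and reads without strand cannot be told apart there.

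CKX5, which with CKX3 is known to limit the activity of reproductive meristems, was at 5.60, 7.77 and 18.9 CPM with DEX, against 9.62, 10.09 and 20.3 CPM with MOCK. Every DEX value lies below the MOCK value of the same run, but the second-run DEX library is above both first-run MOCK libraries. The mean in DEX libraries was 10.8 ± 7.16 CPM, against 13.3 ± 6.01 CPM in MOCK libraries (SD). The log2 fold change within runs was −0.40 ± 0.16 (edgeR adjusted p = 0.207). CKX5 overlaps 3 other annotated loci, AT1G75440, AT1G09553 and AT1G09557.

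CKX6 and CKX4, whose products are known as secreted enzymes, were higher with DEX, with groups that did not overlap, and neither passed. CKX6 was at 20.7, 19.5 and 28.7 CPM with DEX, against 17.0, 17.6 and 16.7 CPM with MOCK. The MOCK libraries lay close together (17.1 ± 0.499 CPM, SD), and the DEX spread (23.0 ± 4.998 CPM, SD) came mostly from the second-run library. The log2 fold change of CKX6 was 0.40 ± 0.13, or 1.32-fold (edgeR adjusted p = 0.131). That was the smallest adjusted p among the members. CKX6 overlaps AT3G63445 on the other strand.

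CKX4 was at 6.37, 7.46 and 9.12 CPM with DEX, against 5.77, 6.10 and 4.32 CPM with MOCK. The second-run library was the highest of the DEX libraries and the lowest of the MOCK libraries. Its log2 fold change was 0.49 ± 0.19, or 1.40-fold (edgeR adjusted p = 0.216). In all, 3 of the 7 tested members had groups that did not overlap, against 8.18% of all genes tested.

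CKX7, the cytosolic member of the family, had the smallest difference. It was at 21.7, 20.9 and 12.1 CPM with DEX, against 20.5, 21.6 and 9.44 CPM with MOCK. The groups overlap, and the low value in each is the second-run library. The log2 fold change was 0.12 ± 0.10 (edgeR adjusted p = 0.594).

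CKX2 and CKX3 did not pass the filter on low counts. CKX2, known from reproductive meristems, had 2, 6 and 2 counts with DEX, against 8, 4 and 4 with MOCK. CKX3 had 0, 2 and 4 counts with DEX, against 26, 4 and 14 with MOCK, a sum of 6 with DEX and 44 with MOCK. The highest DEX count of CKX3 equals the lowest MOCK count. Without the filter its log2 fold change was −2.83 ± 1.18 (edgeR adjusted p = 0.262). Across all loci 16.6% to 25.8% of exon counts between 1 and 20 were odd, depending on the library, and of the 23 member counts between 1 and 60, 0 were odd. Whether 1 fragment gave 2 counts was not tested, so the low counts may stand for fewer fragments.

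Per exonic base, as RPKM (TMM-scaled CPM per kilobase of the deposited gene length), the order of the genes by their means over both runs was not the same as in either run. By these means CKX6, CKX7 and IPT3 were highest, at 11.4 ± 2.49, 8.84 ± 2.58 and 6.60 ± 1.05 RPKM with DEX, against 8.52 ± 0.249, 8.33 ± 3.26 and 8.92 ± 2.14 RPKM with MOCK (SD). IPT3 ranked 3 with DEX and 1 with MOCK. With MOCK the libraries of these 3 genes overlap, and with DEX CKX6 was above IPT3 in every library while CKX7 overlaps both. CKX5 and CKX4 followed at 3.97 ± 2.64 and 3.50 ± 0.634 RPKM with DEX, against 4.92 ± 2.22 and 2.47 ± 0.434 RPKM with MOCK. Their libraries overlap with DEX, and with MOCK those of CKX5 are all higher. In the second run CKX5 was above CKX7, at 6.99 RPKM against 5.87 RPKM with DEX and 7.47 RPKM against 4.58 RPKM with MOCK, and with DEX also above IPT3 (5.51 RPKM). The remaining 5 genes, CKX1, IPT5, IPT7, CKX3 and CKX2, averaged less than 1 RPKM in both groups. CKX1 averaged 0.436 ± 0.0702 RPKM with DEX and 0.715 ± 0.0883 RPKM with MOCK, and IPT5 0.221 ± 0.231 RPKM with DEX and 0.680 ± 0.974 RPKM with MOCK (SD). In both second-run libraries IPT5 was the higher of these.

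Summed over the 3 IPT genes, the level was 6.77, 7.72 and 6.07 RPKM with DEX, against 9.25, 6.86 and 13.4 RPKM with MOCK. IPT3 made up most of it in every library. Summed over the 7 CKX genes, it was 26.3, 26.6 and 31.8 RPKM with DEX, against 25.5, 26.6 and 23.4 RPKM with MOCK. Both sums overlap between the groups. In the first run the CKX sums lay within 25.5 and 26.6 RPKM in all 4 libraries, while their make-up differed: CKX6 took 39.1% and 36.6% of the sum with DEX, against 33.2% and 33.0% with MOCK. CKX5 took 7.84% and 10.8% with DEX, against 13.9% and 14.0% with MOCK, in the same 4 libraries. These shares depend on one another, since they add up to the whole, and were not tested.

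**Figure D2:**
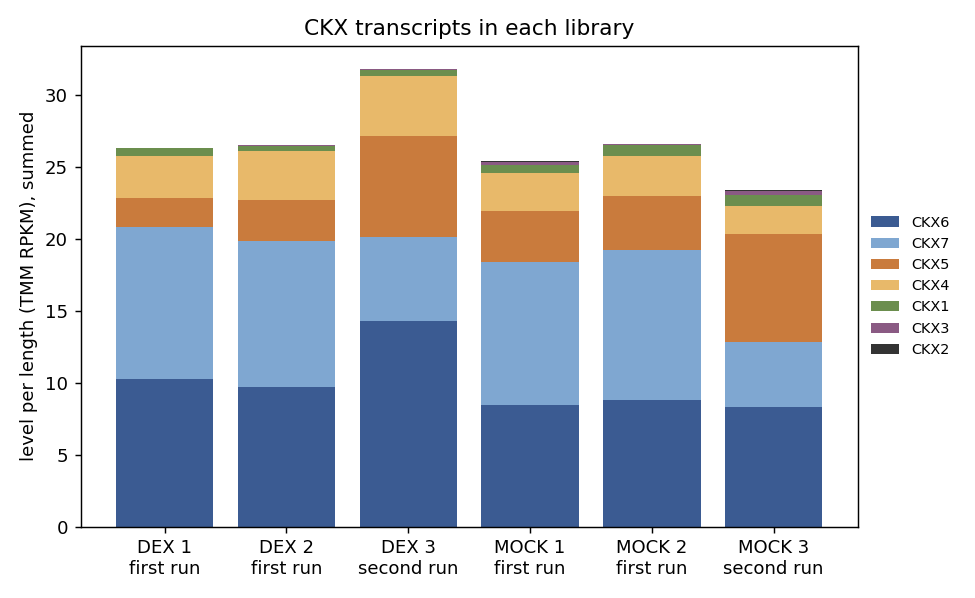
Summed level per length (TMM RPKM, vertical axis) of the 7 CKX genes in each library, with 1 stacked colour per gene. CKX6 and CKX7 form most of each first-run bar, and in the second run CKX5 takes a larger share (21.9% with DEX and 31.9% with MOCK) and CKX7 a smaller one (18.4% with DEX and 19.5% with MOCK).

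Because the runs differed in root transcripts and in the TCP5 transcript, the second question was how the members differed between the second run and the first, and whether the DEX effect did. Of the 7 tested members 3 passed for the run term, against 55.5% of all genes. IPT5 was higher in the second run, with a log2 fold change, second run over first, of 3.29 ± 0.50 (edgeR adjusted p = 0.000814). CKX5 was higher too (1.27 ± 0.16, edgeR adjusted p = 0.000309) and averaged 19.6 CPM in the second run and 8.27 CPM in the first. CKX7 was lower in the second run, at −0.98 ± 0.12 (edgeR adjusted p = 0.000225), and averaged 10.8 CPM in the second run and 21.2 CPM in the first. IPT3, CKX1, CKX4 and CKX6 did not pass for the run term, with log2 fold changes between 0.00 and 0.24. What else differed between the runs besides sequencing cannot be told apart from it.

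Within the first run, where the root markers other than PYK10 were near 0, 0 of the 7 members passed in a fit of those 4 libraries. Of all 21934 genes tested in that fit, 697 passed and 3540 had an unadjusted edgeR p under 0.05. Among the members CKX5 alone was under that unadjusted threshold (adjusted p = 0.182), at a log2 fold change of −0.55 ± 0.18. For IPT3, CKX4 and CKX6 the difference was small in the first run and larger in the second. As a difference of log2 CPM, DEX minus MOCK, IPT3 was at −1.003 in the second run and −0.12 in the first. CKX4 was at 1.07 in the second run and 0.22 in the first, and CKX6 at 0.78 in the second run and 0.21 in the first. These 3 had an unadjusted interaction p under 0.05 in edgeR, against 6.55% of all genes. After adjustment edgeR called 0 members and 0% of all genes (adjusted p = 0.715 for each of the 3). DESeq2 called 0 members and 47 genes, with 1 member at an unadjusted p under 0.05. The share of all genes at that unadjusted threshold was not counted for DESeq2. The second run holds 1 library per group, so its values have no replicate check. The TCP5 transcript was also higher in the second run, and its part in these differences was not tested.

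**Figure D3:**
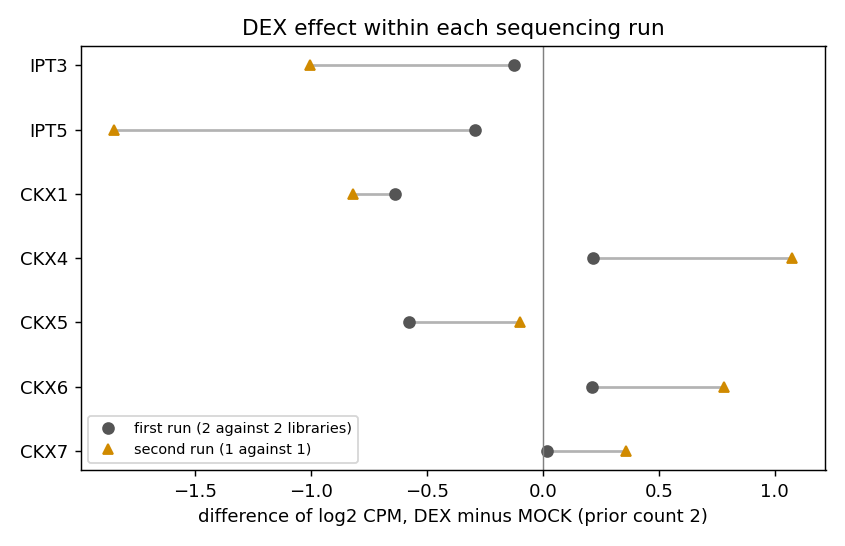
Difference of log2 CPM between DEX and MOCK (horizontal axis, prior count of 2) for the 7 tested members, with circles for the first run (2 against 2 libraries) and triangles for the second (1 against 1). The direction is the same in both runs for every gene shown; the second-run difference is the larger one for all but CKX5.

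The third question was what other genes of the cytokinin pathway did in the same fit. Of 62 further genes on 10 lists, 51 were tested, 1 rose, 6 fell and 44 did not pass. Over all genes tested, 1.09% rose and 3.58% fell. The median log2 fold change was −0.11 over these 51, −0.40 over the 7 tested members and 0.00 over all genes tested. The median of the members is the value of CKX5, and they ranged on both sides of 0, between −1.04 and 0.49. LOG8, an enzyme that releases active cytokinin, rose. UGT76C2, which inactivates cytokinins by N-glucosylation, fell, as did ABCG14, which exports root-made cytokinin toward the shoot, and the receptor gene AHK4. These 4 genes kept their call in 14 of the 15 alternatives tried for each, the exception being the fit with no run term.

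LOG8 (AT5G11950) was at 51.6, 49.3 and 53.4 CPM with DEX, against 33.8, 31.7 and 31.9 CPM with MOCK. Both groups were tight, and the log2 fold change was 0.66 ± 0.08 (edgeR adjusted p = 0.00629). It was the 1 LOG gene of 7 tested that passed. The 7 ranged between −1.21 and 0.66, with a median of −0.71. UGT76C2 (AT5G05860) was at 5.22, 5.61 and 4.86 CPM with DEX, against 9.77, 10.4 and 14.0 CPM with MOCK. Its groups did not overlap, and its log2 fold change was −1.09 ± 0.15 (edgeR adjusted p = 0.00966), whereas its neighbour in the family, UGT76C1, had 0.05 ± 0.11. In the first run alone UGT76C2 had a smaller fall (log2 fold change −0.89, edgeR adjusted p = 0.0221).

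ABCG14 (AT1G31770) was at 7.17, 6.65 and 25.3 CPM with DEX, against 26.5, 28.6 and 60.6 CPM with MOCK. The groups did not overlap, and the gene was higher in the second run in both. Its log2 fold change was −1.75 ± 0.16 (edgeR adjusted p = 0.00279), and −1.99 in the first run alone (adjusted p = 0.00202). ABCG14 overlaps AT1G31772 on the other strand. AHK4 (AT2G01830) was at 4.84, 4.42 and 12.2 CPM with DEX, against 10.3, 8.84 and 24.3 CPM with MOCK. The second-run DEX library is above both first-run MOCK libraries, so the groups overlap across runs. Its log2 fold change was −1.03 ± 0.11 (edgeR adjusted p = 0.00442), and −1.04 in the first run alone (adjusted p = 0.0195). The other receptor genes, AHK2 and AHK3, had 0.01 ± 0.16 and 0.09 ± 0.09. In the first run the root markers other than PYK10 summed to at most 1.66 CPM, and PYK10 was at 365 and 301 CPM with DEX, against 556 and 716 CPM with MOCK. PYK10 itself fell (log2 fold change −1.11 ± 0.17, edgeR adjusted p = 0.0118) over all 6 libraries, and its part in the values of ABCG14 and AHK4 was not tested.

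**Figure D4:**
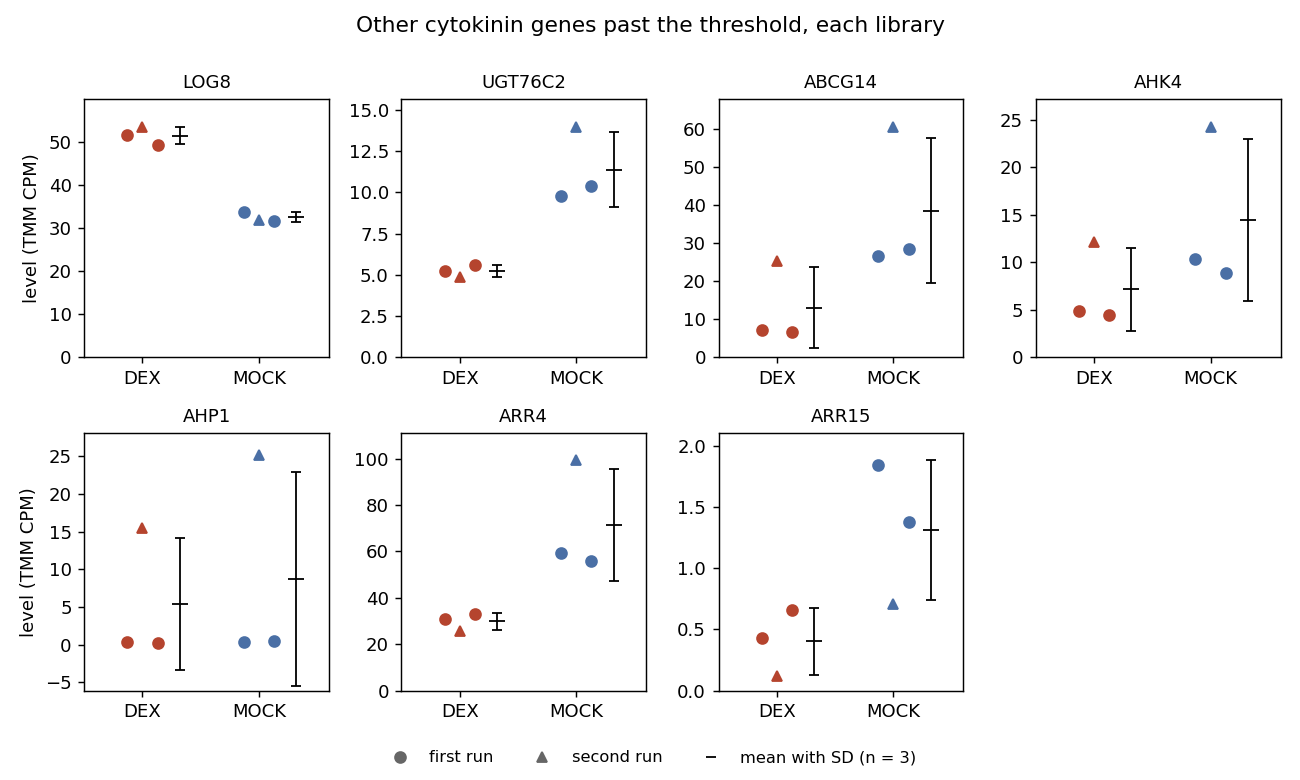
Level (TMM CPM, vertical axis, a separate scale per gene) of the 7 other cytokinin genes past the threshold, in every DEX and MOCK library, with circles for the first run, triangles for the second, and a black bar for the mean with SD (n = 3). LOG8 is higher in each DEX library than in any MOCK library; AHP1 is near 0 in all first-run libraries.

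The phosphotransfer gene AHP1 fell by 0.71 on the log2 scale, with SE 0.16 (edgeR adjusted p = 0.0480). Its levels were 0.291, 0.271 and 15.5 CPM in the DEX libraries, against 0.410, 0.511 and 25.1 CPM in the MOCK libraries, so nearly all of its transcript was seen in the second run. Type-A response regulators feed back on the pathway, and ARR4 and ARR15 fell among the 8 tested. ARR4 was at 30.7, 33.1 and 25.8 CPM with DEX, against 59.3, 55.8 and 99.3 CPM with MOCK (log2 fold change −1.21 ± 0.23, edgeR adjusted p = 0.0475). ARR15 was at 0.428, 0.662 and 0.118 CPM with DEX, against 1.84, 1.37 and 0.709 CPM with MOCK (−1.76 ± 0.38, edgeR adjusted p = 0.0421). For both the groups did not overlap. With the replicate block none of these 3 passed (edgeR adjusted p = 0.0915 for AHP1, 0.102 for ARR4 and 0.0849 for ARR15). In the first run alone ARR4 passed, with a smaller fall (log2 fold change −0.84, edgeR adjusted p = 0.00964). The larger fall over all 6 libraries rests partly on the second run, with 1 library per group. AHP1 and ARR15 did not pass in the first run alone (edgeR adjusted p = 0.591 for AHP1 and 0.0822 for ARR15). The hydroxylase gene CYP735A2, named after its values were seen, did not pass (log2 fold change −2.86 ± 0.59, edgeR adjusted p = 0.0569). It was at 0.0342, 0 and 4.41 CPM with DEX, against 0.724, 0.707 and 17.6 CPM with MOCK. The root marker sum without PYK10 was higher in the second-run MOCK library too, though not each marker, and its part in the values of AHP1 and CYP735A2 was not tested. No other isopentenyltransferase, type-B response regulator or cytokinin response factor passed, of 3, 6 and 6 tested.

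**Figure D5:**
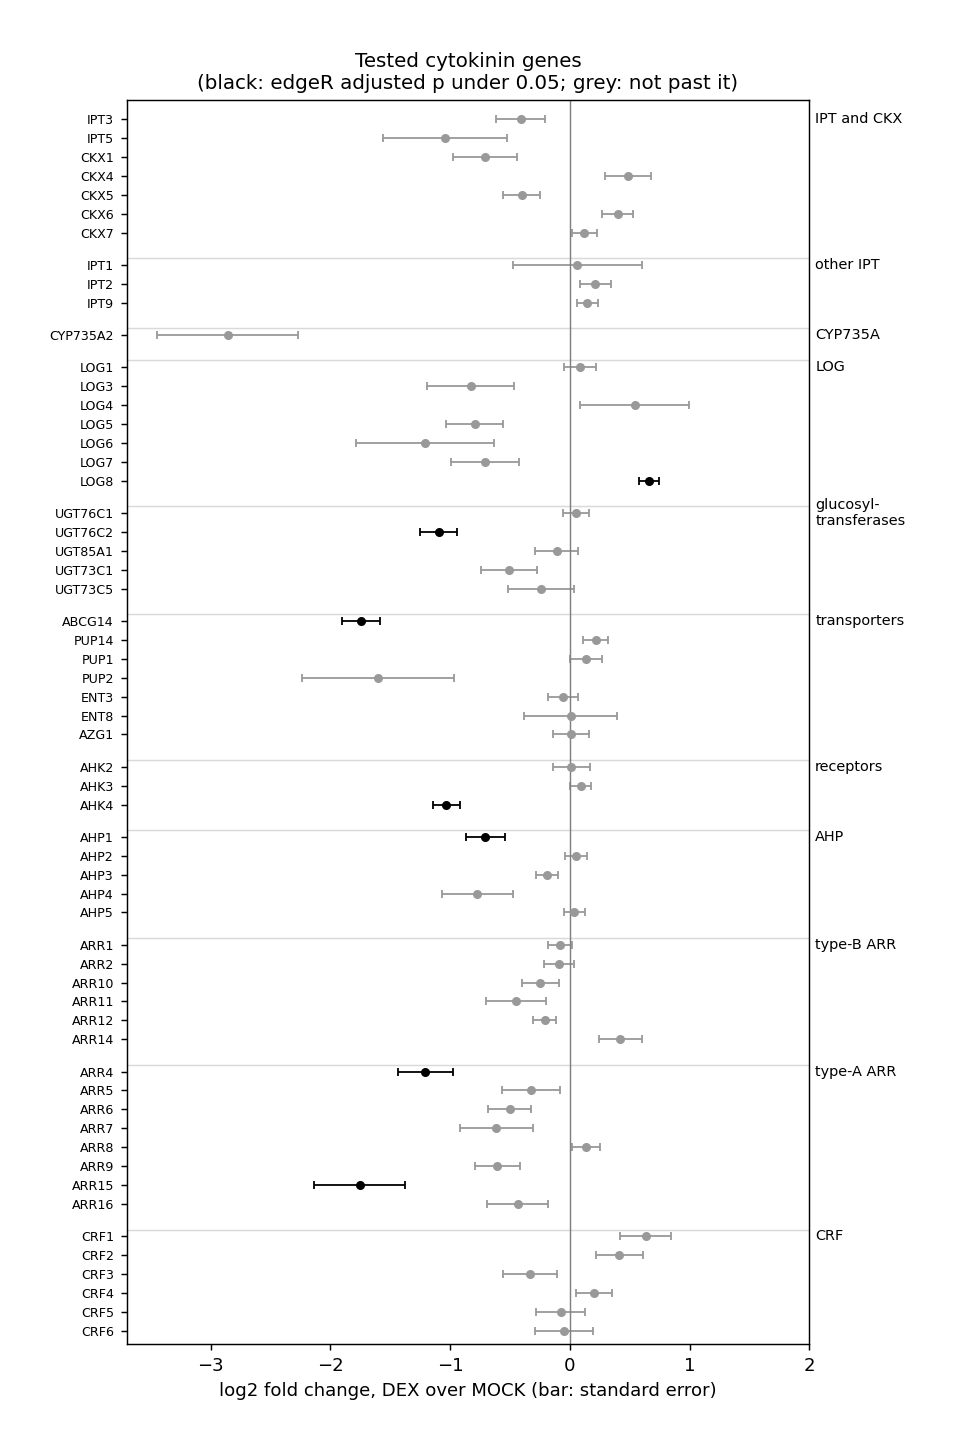
Log2 fold change, DEX over MOCK, with its standard error (horizontal axis) for the 7 tested IPT and CKX genes, at the top, and the 51 other tested cytokinin genes by list. Black points passed at an edgeR adjusted p under 0.05 (LOG8, UGT76C2, ABCG14, AHK4, AHP1, ARR4 and ARR15), and grey points, among them all 7 members, did not.

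Across the 6 libraries the members varied in 2 ways. IPT5 and CKX5 followed the runs together (Pearson r of log2 CPM 0.88), and CKX7 ran against both (r = −0.98 with IPT5 and −0.91 with CKX5). CKX4 and CKX6 varied together (r = 0.85), and IPT3 ran against both (r = −0.89 with CKX4 and −0.81 with CKX6). CKX1 also ran against them (r = −0.80 with CKX4 and −0.68 with CKX6), and had r = 0.52 with IPT3. These values describe 6 libraries that share run and treatment. For the 3 members with the highest mean CPM, the genes most alike over these 6 libraries were AT3G24255, AT1G09677 and AT5G50530 for CKX6 (r = 0.993, 0.978 and 0.974). For CKX7 they were AT2G31150, RRA1 and AT1G60200 (r between 0.9992 and 0.9995), and for IPT3 AT1G04778, AT2G18600 and AT2G15240 (r = 0.994, 0.977 and 0.969).

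The promoters of the members, 250 bases before to 50 after the RefSeq gene start (TAIR10.1), were searched on both strands for short motifs. The CIN-class TCP site GTGGNCCC was in 0 of 10 windows, against 0.787% of the windows of 27443 protein-coding genes. Its core GGNCCC, which the longer site contains, was also in 0 of 10, against 8.68%. The core of type-B response regulator sites, AGATT, was in 6 of 10 windows, against 69.7% of all windows. No match says only that these letters are not in this window. Of the members whose groups did not overlap, CKX1 and CKX6 hold AGATT before the start and CKX4 does not. CKX7, which had the smallest difference, holds it there too, as do IPT7, CKX2 and CKX3. The stretches of CKX1 and CKX6 are shown in the direction of the gene, from 169 to 125 bases before the start for CKX1 and from 185 to 107 bases before it for CKX6. Capitals mark AGATT or, on the other strand, AATCT. A match is a description and shows no binding.
CKX1: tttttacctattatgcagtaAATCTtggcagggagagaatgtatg
CKX6: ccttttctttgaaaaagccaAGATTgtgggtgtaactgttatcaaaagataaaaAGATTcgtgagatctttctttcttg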

How the data were processed

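The deposited values are whole-number read counts for every locus, given separately for exonic and intronic reads beside a gene length in bases, per the file headers. The submitters' processing notes list STAR and DESeq2. Which counter, build and annotation were used is not given in the sources used here. Libraries came from a TruSeq RNA kit, per the labels' protocols, which does not mark strand.

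Exon counts of all loci were tested in R 4.3.3 with edgeR 4.0.16, after TMM scaling and filterByExpr (minimum count 10, minimum total 15), by a robust quasi-likelihood fit with run and treatment as terms, and Benjamini-Hochberg adjustment over all genes tested at 0.05. SE is the log2 fold change divided by the square root of F. The interaction was fitted with 2 residual degrees of freedom. Alternatives were DESeq2 1.42.0, limma-voom (limma 3.58.1), other scalings, no filter, the first run alone, a replicate block, omission of the run term, exon plus intron counts and each library left out. Members, lists and markers were chosen with earlier results of these data known. The rule named all members, TCP5, each listed cytokinin gene that passed, and for the 3 members with the highest mean CPM the 3 genes with the highest correlation; other genes are given for comparison and were named after their values were seen. Log2 CPM used a prior count of 2.

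Libraries with the same number had correlated deviations from the group means (r across genes 0.627, 0.607 and 0.879), values that include the shift between runs. Within the first run the difference between replicates 1 and 2 correlated at −0.14 between DEX and MOCK. That is a single difference per group, so it cannot show whether libraries of the same number share anything beyond the run. The reported fit has the run and no block, and the calls with a block are given as an alternative. Chi-square tests between libraries found no duplicate (lowest value per degree of freedom 28.45, MOCK replicates 1 and 2). DEX replicates 1 and 2 differed more from each other (261.7) than from either first-run MOCK library (111.7 to 160.9). Names, overlaps and promoters came from RefSeq TAIR10.1, which matched all 10 members; deposited lengths equalled its exonic length for 5 of them and for 78.7% of loci. Coordinates are not given, because no source names the build.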

Additional observations from a re-analysis of the deposited data

How the results depend on the processing

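In the 15 alternatives fixed for the fit reported, 0 members were called each time and no tested member changed direction. The log2 fold change ranged from −0.60 to −0.12 for IPT3, −1.63 to −0.42 for IPT5, −0.87 to −0.58 for CKX1, 0.22 to 0.63 for CKX4, −0.56 to −0.23 for CKX5, 0.21 to 0.49 for CKX6 and 0.02 to 0.18 for CKX7. The lowest adjusted p of any of the 10 members in the alternatives that tested it was 0.0779 (CKX6). Without the low-count filter all 10 members were tested and 0 passed. The number of genes called over the whole table moved more. It was 1024 as reported, 2065 with DESeq2, 571 with the replicate block, 0 with no run term (798 at an unadjusted p under 0.05) and 279 to 1132 with 1 library left out. The lower end was without MOCK replicate 2, and the count was 304 without DEX replicate 2, 476 without MOCK replicate 1, 613 without DEX replicate 3 and 630 without MOCK replicate 3. The cause of these moves was not tested. AHP1, ARR4 and ARR15 lost their calls in 10, 9 and 11 of the 15 alternatives. The replicate block changed no other call given in the text, PYK10 included (adjusted p = 0.0327). Crossing replicates 1 and 2 between DEX and MOCK in the block, chosen after seeing the data, gave 0 members and 1084 genes called. The 3 members called for the run term were also 3 with RLE size factors and with DESeq2, alternatives chosen after seeing the data. Depth limits IPT5, IPT7, CKX2 and CKX3, with at most 102 counts in any library.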

Other observations

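Intron counts, which entered the fits above only in the alternative with exon plus intron counts, were 0 in all 6 libraries for IPT3, IPT5, IPT7 and CKX2 and were found for the other 6 CKX genes. RefSeq gives IPT3 and IPT7 a single exon. CKX6 had the most, at 3.25, 3.05 and 2.43 intron CPM in the DEX libraries, against 1.86, 2.49 and 1.32 in the MOCK libraries. The means were 2.91 ± 0.430 with DEX and 1.89 ± 0.584 with MOCK (SD, n = 3), and the lowest DEX library lies below the highest MOCK library. Introns held 12.0% of CKX6 counts with DEX and 10.6% with MOCK, and 17.0% of CKX1 counts with DEX and 7.81% with MOCK. For CKX1 these were 18, 16 and 0 intron counts with DEX, against 12, 12 and 2 with MOCK, so the groups overlap.

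Several isopentenyltransferase and LOG genes were barely seen in these seedlings. IPT4 and LOG9 had 0 counts in all 6 libraries. IPT6 had 2 counts in DEX replicate 3, IPT8 had 2 in DEX replicate 1 and LOG2 had 2 in MOCK replicate 2, and each had 0 in all other libraries. The tRNA-modifying types IPT9 and IPT2 were the most abundant of the other isopentenyltransferases, at 41.0, 43.4 and 27.0 CPM with DEX, against 39.0, 40.9 and 22.0 CPM with MOCK for IPT9. Its log2 fold change was 0.15 ± 0.09 (edgeR adjusted p = 0.426).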
